A study of Mus musculus with 18 samples.

Results

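Livers of 6 Dp16-2xIFNRs mice were compared with those of 6 wild-type C57BL/6J mice by polyA RNA sequencing. These are 12 of the 18 samples of the series, and the genes described are the 12232 of 55385 annotated genes that reached a CPM (counts scaled by library size to a common total) of at least 1 in at least 6 of the 18 libraries. Each group held 3 males and 3 females, with no treatment given. Wild-type mice were 17.1 to 18.0 weeks old and Dp16-2xIFNRs mice 17.7 to 18.0 weeks. Dp16 mice carry a duplication of the part of mouse chromosome 16 that matches the long arm of human chromosome 21, so that its genes are present in 3 copies in every cell. Dp16-2xIFNRs mice carry the same duplication together with the loss of 1 copy of the interferon receptor cluster inside it, so that these 4 receptor genes are back at 2 copies. Both changes are in the germ line and not limited to the liver. No group of the series carries the receptor deletion without the duplication. The third group, 6 Dp16 mice with the same numbers of each sex and aged 17.1 to 18.0 weeks, served for values set side by side and shared the fit.

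Interferons signal through cell surface receptors built of pairs of subunits. Ifnar1 and Ifnar2 form the receptor of type I interferons, Ifngr2 is a subunit of the interferon gamma receptor, and Il10rb is a shared subunit of the receptors for interleukin 10 and type III interferons. Bound receptors activate JAK kinases and STAT transcription factors, which switch on antiviral and antigen presentation genes. In people with trisomy 21 these receptor genes are present in an extra copy and interferon signalling is known to be raised, and the question put to this comparison was which liver transcripts still differ from wild-type when the receptor dosage is normal.

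Hepatocyte genes were abundant in all libraries. The 21 hepatocyte identity markers were detected in each library and together took 129601, 154630 and 180622 CPM (lowest, median and highest library) in wild-type and 136113, 166652 and 195518 CPM in Dp16-2xIFNRs livers. Library totals ran from 43561249 to 53105543 counts in wild-type and from 38236222 to 51008693 in Dp16-2xIFNRs (two-sided exact permutation p = 0.264). Sex inferred from the transcripts matched the label in 12 of 12 libraries. Dp16 libraries 4 and 5 stood apart in composition, with normalization factors of 0.776 and 1.36 beside 0.897 to 1.13 in the other 16 libraries. They entered the comparison with wild-type through the filter on low counts, the sex term and the shared estimate of the spread, and they are part of every value given for Dp16. Without them the number of genes called between Dp16-2xIFNRs and wild-type went from 12 to 59, the 12 among them. The labels state no litters or batches. The p values rest on the spread within groups, estimated over all 18 libraries, with each library taken as independent. Some libraries of different groups share a number in their descriptions, whose meaning is not given. Libraries with the same number had a consensus correlation of 0.484, which the main fit leaves out.

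A trend with gene length ran through the comparison and is given first, because it touches most values below. Sorted by length into 5 equal bins, genes of 57 to 1710 bases had a median log2 fold change of 0.20, and the following bins stood at 0.07, -0.03, -0.12 and, for genes of 5389 to 123179 bases, -0.28. Across the 12232 genes Spearman's correlation of fold change with length was -0.448, a description, since genes of 1 library share its RNA and depth. The trend varied among libraries of the same group. The slope of log2 CPM on log2 length ran from -0.254 to 0.268 per doubling of length in wild-type libraries and from -0.268 to -0.0486 in Dp16-2xIFNRs libraries. The groups overlapped, and the mean difference of -0.161 did not pass a two-sided exact permutation test (p = 0.134 over 924 arrangements). A fit in which the length trend of each library was removed as an offset, an alternative chosen after seeing the data, is therefore given beside most gene lists and for the described genes called in either fit. With the offset the 5 length bins all had medians between -0.02 and -0.01, which follows from how the offset is made.

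**Figure D1:**
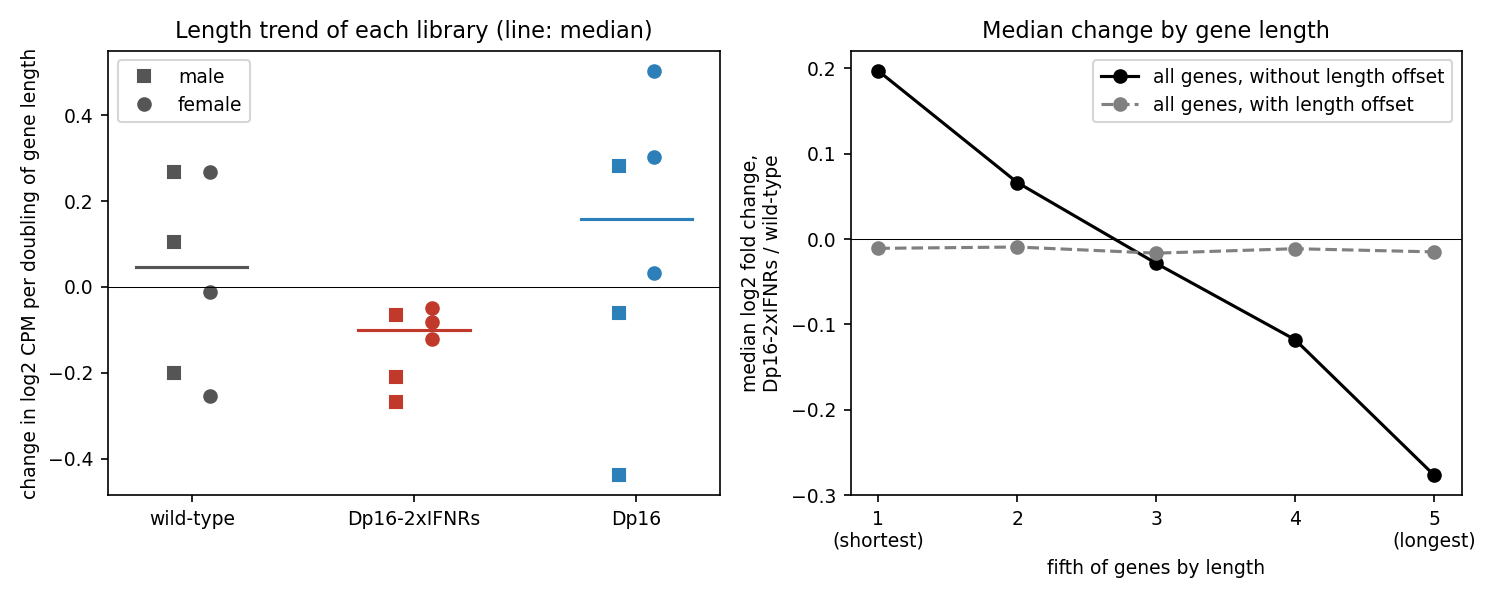
Left, change in log2 CPM per doubling of gene length for each library (squares, males; circles, females; line, group median). Right, median log2 fold change of Dp16-2xIFNRs against wild-type for genes sorted by length into 5 bins, from 0.20 in the shortest to -0.28 in the longest. Once the length trend of each library is removed it is near 0 in all bins, which follows from that step.

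The 4 receptor genes did not differ from wild-type beyond the spread of the libraries. Ifnar2 measured 54.1, 61.6 and 69.7 CPM (lowest, median, highest) in wild-type, 61.8, 66.5 and 82.0 in Dp16-2xIFNRs and 63.4, 94.0 and 98.6 in Dp16 livers. Its log2 fold change against wild-type was 0.17 (SE 0.13, 95% interval -0.09 to 0.42, edgeR adjusted p = 0.653). Ifnar1 measured 19.6, 21.7 and 25.2 CPM in wild-type, 18.4, 23.8 and 27.0 in Dp16-2xIFNRs and 26.3, 32.0 and 41.9 in Dp16, a log2 fold change against wild-type of 0.07 (SE 0.14, 95% interval -0.20 to 0.34, edgeR adjusted p = 0.853). For both genes the Dp16-2xIFNRs libraries overlapped the wild-type ones, and for Ifnar1 the medians of the 2 groups lay closer together than the libraries of either. Il10rb stood at 5.89 and 7.02 CPM (medians of wild-type and Dp16-2xIFNRs), a log2 fold change of 0.18 (SE 0.22, edgeR adjusted p = 0.768), and Ifngr2 at 28.6 and 27.0 CPM, a log2 fold change of -0.03 (SE 0.19, edgeR adjusted p = 0.957). With the length offset the log2 fold changes were 0.18 for Ifnar2, 0.14 for Ifnar1, 0.05 for Il10rb and 0.01 for Ifngr2. Against Dp16, all 4 receptors were lower in Dp16-2xIFNRs by point estimate. The log2 difference for Ifnar1 was -0.53 (95% interval -0.80 to -0.25), for Ifnar2 -0.37 (-0.62 to -0.11), for Il10rb -0.60 (-1.02 to -0.17) and for Ifngr2 -0.44 (-0.82 to -0.06). Their unadjusted p values were 0.00139, 0.0106, 0.0131 and 0.0341, and each had an edgeR adjusted p of 0.476 over all genes, so none passed.

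The genes around the receptors stayed above wild-type. Of the 380 other annotated genes of the duplicated segment (chr16:75540514-97962622, GRCm38), 77 passed the filter on low counts. Of these 70 lay above wild-type, and the median log2 fold change was 0.50 (middle 50% of genes 0.19 to 0.89), while 5868 of the 12232 genes tested were positive with a median of -0.02. The log2 of 3 copies over 2 is 0.585. The median over the segment genes, taken in each library against the wild-type mean, was 0.46 to 0.65 in the 6 Dp16-2xIFNRs libraries and -0.08 to 0.11 in the wild-type libraries, which did not overlap. The 311 tested genes of chromosome 16 outside the segment had a median of 0.01. Orthologues of chromosome 21 genes on mouse chromosomes 10 and 17, which the duplication leaves in 2 copies, had medians of -0.05 (28 genes) and 0.21 (11 genes).

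Within the segment the size of the change followed gene length. The shortest 25 of the 77 genes (up to 2294 bases) had a median of 0.86, the middle 26 of 0.52, and the longest 26 (5833 bases and over) of 0.21, with a Spearman correlation of -0.514 across the 77 genes. With the length offset the medians of the same bins were 0.62, 0.54 and 0.49, the correlation was -0.154, the median of all 77 was 0.58 (middle 50% 0.34 to 0.75) and 74 of 77 were positive. By position the medians lay closer together. With the offset, the 37 genes before the receptors had a median of 0.55, the 40 beyond them 0.59, and the 20 genes within 1 Mb of the cluster, which borders the deletion, 0.61. Dp16 livers, which share the wild-type libraries with this comparison, had a median of 0.61 (0.58 with the offset) for the same 77 genes.

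**Figure D2:**
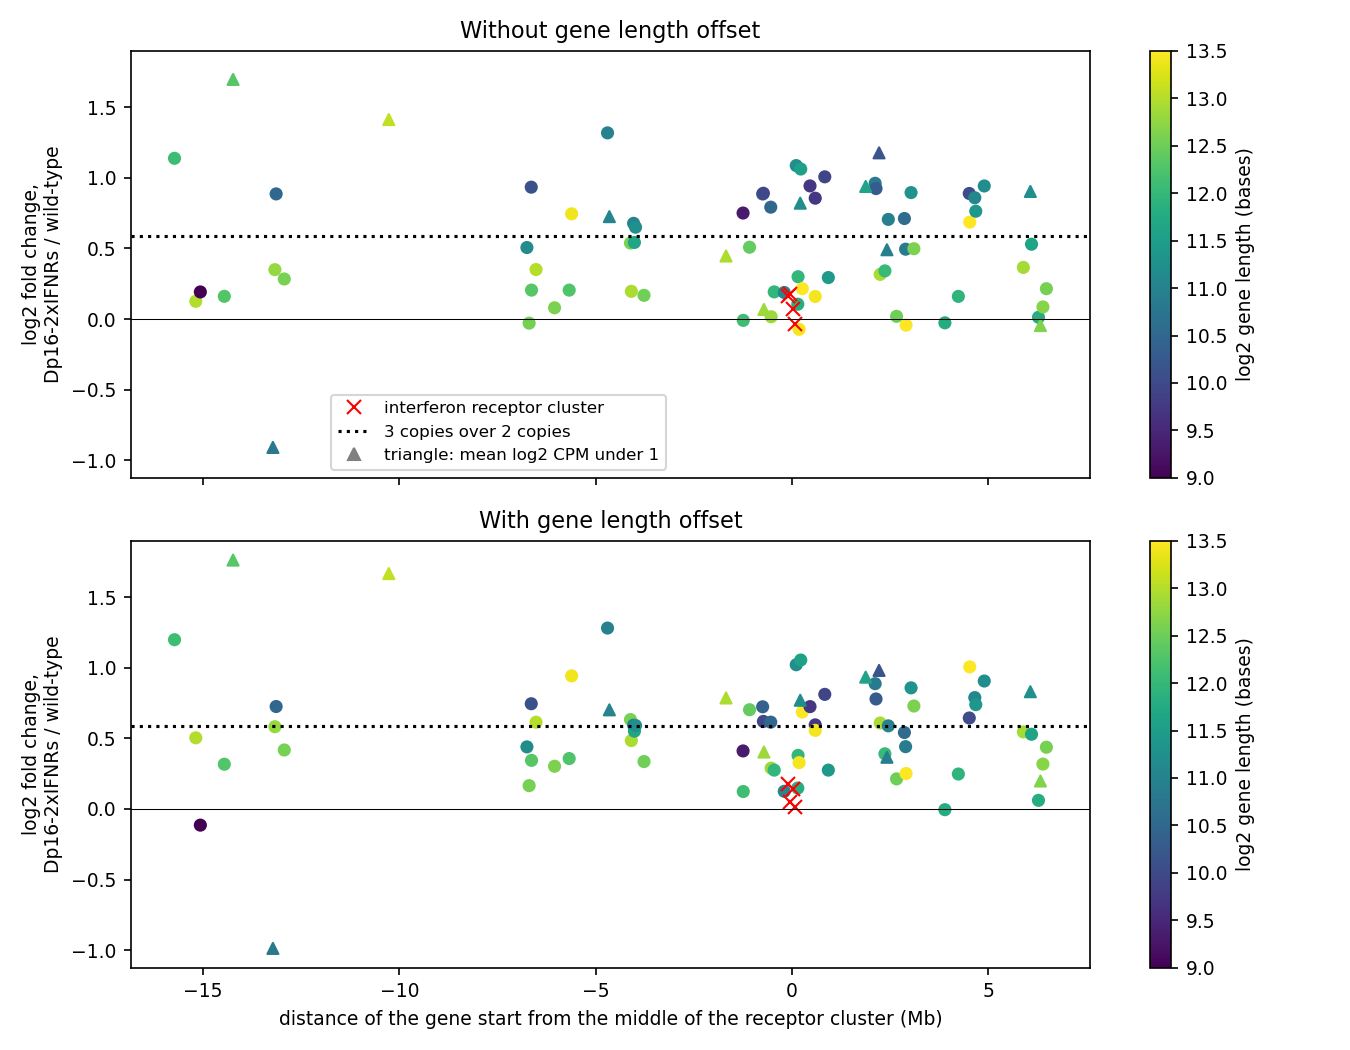
Log2 fold change of each of the 77 tested segment genes and the 4 receptors (crosses) against distance from the receptor cluster in Mb, coloured by gene length, without (top) and with (bottom) the length offset. The dotted line is 3 copies over 2 copies (0.585), and short genes (dark) lie above long genes (light) in the top panel, with medians of 0.86 and 0.21, and closer together in the bottom panel, with 0.62 and 0.49.

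Of the segment genes 3 were called without the offset (edgeR adjusted p under 0.05, which 0.0736% of all genes tested passed in the higher direction), and 13 had no overlap between the groups (0.507% of all genes lay higher without overlap). Tmem50b, which encodes a membrane protein of the endoplasmic reticulum, measured 3.28, 4.05 and 6.44 CPM in wild-type and 7.06, 9.25 and 11.8 in Dp16-2xIFNRs livers, a log2 fold change of 1.09 (SE 0.18, edgeR adjusted p = 0.0206). Cct8, a subunit of the chaperonin that folds actin and tubulin, measured 83.7, 100.3 and 115 CPM in wild-type and 137, 153 and 175 in Dp16-2xIFNRs livers, a log2 fold change of 0.65 (SE 0.11, edgeR adjusted p = 0.032). Vps26c, part of a complex that returns membrane proteins from endosomes, measured 13.1, 14.7 and 19.1 CPM in wild-type and 26.2, 27.7 and 35.1 in Dp16-2xIFNRs livers, a log2 fold change of 0.90 (SE 0.17, edgeR adjusted p = 0.0413). For all 3 genes the lowest Dp16-2xIFNRs library lay above the highest wild-type library.

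With the length offset 10 segment genes were called, all higher (0.229% of all genes). Beside the 3 above they included Atp5j and Atp5o, subunits of the mitochondrial ATP synthase. Atp5j measured 131, 188 and 288 CPM in wild-type and 323, 369.5 and 474 in Dp16-2xIFNRs livers, without overlap, a log2 fold change of 0.93 without and 0.75 with the offset (edgeR adjusted p with the offset 0.0076). Atp5o, likewise without overlap, stood at 0.94 and 0.72 (0.011 with the offset). Psmg1, a chaperone of proteasome assembly, rose with the offset by 0.64 (0.0032), and Cbr1, a carbonyl reductase, by 0.78 (0.022). Hmgn1, a nucleosome-binding protein, and the small membrane protein gene Smim11 stood at 0.79 (0.031) and 0.81 (0.00365). Dyrk1a, the last of the 10 and a kinase studied for its part in Down syndrome, measured 9.98, 15.8 and 23.7 CPM in wild-type and 19.6, 23.5 and 25.1 in Dp16-2xIFNRs livers, and went from 0.50 (edgeR adjusted p = 0.513) to 0.73 (0.0072) with the offset. It is a long transcript, and its 6 Dp16-2xIFNRs libraries all lay above the wild-type mean. With 1 of the 18 libraries left out in turn and the offset kept, 8 of the 10 genes kept their call in 18 of 18 fits, while Cbr1 kept it in 10 (adjusted p up to 0.0823, without wild-type 2) and Hmgn1 in 8 (up to 0.101, without wild-type 2).

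Other segment genes of note to the biology of trisomy 21 did not pass. App, the amyloid precursor protein, stood at 0.35 without and 0.61 with the offset (edgeR adjusted p = 0.0736 with it). Sod1, the cytosolic superoxide dismutase and a short gene, measured 1150.3, 1478 and 2219.9 CPM in wild-type and 2228, 2675 and 2801 in Dp16-2xIFNRs livers and stood at 0.75 without (edgeR adjusted p = 0.249) and 0.41 with the offset. The libraries of Sod1 did not overlap, by a narrow margin. Itsn1, an endocytic scaffold with a long transcript, moved in the opposite way, from 0.21 to 0.69. The inhibitor of calcineurin Rcan1 stood at 0.29 without and 0.28 with the offset, and the transcription factor gene Ets2 at 0.16 and 0.25.

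Not all segment genes were above wild-type. Erg, a transcription factor of endothelial cells, stood at -0.03 without and -0.01 with the offset, and Jam2, a junction protein of endothelial cells, at -0.03 and 0.17. Scaf4 and Ripk4 stood at -0.01 and 0.01 without the offset and at 0.12 and 0.06 with it. The most negative was the non-coding transcript E330011O21Rik at -0.91 (SE 0.38), with overlapping groups. Son, a splicing protein, and Ttc3, a ubiquitin ligase, had -0.07 and -0.04 without the offset and 0.33 and 0.25 with it. Markers of endothelial cells in general had a median of -0.23 over 25 genes without the offset and -0.03 with it, and their part in the values of Erg and Jam2 was not tested. At the high end lay Hspa13, a relative of the heat shock proteins, which measured 22.8, 31.2 and 64.0 CPM in wild-type and 26.2, 70.9 and 143 in Dp16-2xIFNRs livers (log2 fold change 1.14, SE 0.33, edgeR adjusted p = 0.262, and 1.20 with the offset), with overlapping groups.

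Over all genes, 12 were called (0.0981% of 12232), 9 higher and 3 lower, and 1138 (9.3%) had an unadjusted p under 0.05, 462 of them higher and 676 lower. Groups without overlap were found for 103 genes (0.842%). With the length offset 49 were called (0.401%, and 10.4% at an unadjusted p under 0.05), 28 higher and 21 lower, with all 12 among them. The 9 called genes outside the segment lie on 7 other chromosomes. They include a regulator of hair colour, an angiogenesis marker, a tryptophan enzyme, complement and chemokine genes and 2 immunoglobulin constant regions. With the offset the log2 fold changes of the called genes described here were 1.02 for Tmem50b, 0.59 for Cct8, 0.86 for Vps26c, 2.90 for Esm1, 1.55 for Acmsd, 2.55 for 1810064F22Rik, 3.01 for Ighg2b and 3.36 for Ighg2c. Those of the 3 lower genes were -1.65 for C4a, -1.04 for Fcna and -2.28 for Ccl24.

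The agouti gene a, which encodes a secreted regulator of pigment type in hair (chr2:154791402-155051012, GRCm38), had 0 counts over the 6 wild-type libraries and 496 over the 6 Dp16-2xIFNRs libraries, 13 to 166 in each. Its level was 0.308, 1.98 and 4.15 CPM in Dp16-2xIFNRs and 0.681, 2.34 and 4.12 CPM in Dp16 livers. With the 6 wild-type libraries set together to a floor of 3 counts, the Dp16-2xIFNRs level was at least 186-fold higher (edgeR adjusted p = 0.00102, and 0.000646 with the offset). Of the 16 tested genes around it, agouti was the 1 called, and the list had a median of 0.18, or 0.07 with the offset.

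Esm1, a proteoglycan secreted by endothelial cells at the tip of growing vessels, measured 0.140, 0.699 and 1.69 CPM in wild-type and 4.03, 4.97 and 8.81 in Dp16-2xIFNRs livers, a log2 fold change of 2.97 (SE 0.45, edgeR adjusted p = 0.0087). All Dp16-2xIFNRs libraries lay above all wild-type ones. Angpt2, a vessel-destabilising ligand that like Esm1 marks sprouting endothelium, also showed no overlap (0.484, 0.635 and 1.43 CPM beside 1.47, 1.98 and 2.94) with a log2 fold change of 1.36 (SE 0.33), but did not pass (edgeR adjusted p = 0.128). The 20 tested genes of the VEGF and angiogenesis list had a median of -0.17 without and 0.00 with the offset, and Esm1 was the 1 called.

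Acmsd, which diverts tryptophan breakdown away from NAD synthesis, measured 11.4, 18.4 and 30.4 CPM in wild-type and 28.6, 55.3 and 90.2 in Dp16-2xIFNRs livers, a log2 fold change of 1.57 (SE 0.26, edgeR adjusted p = 0.0206). The highest wild-type library reached just above the lowest Dp16-2xIFNRs library. The other 18 of the 19 genes of tryptophan and NAD metabolism were not called. Tdo2, the first enzyme of that route in liver, stood at 0.42 (SE 0.19, edgeR adjusted p = 0.519). The uncharacterised transcript 1810064F22Rik on chromosome 9 measured 0.172, 0.437 and 0.658 CPM in wild-type and 1.47, 2.45 and 5.30 in Dp16-2xIFNRs livers (log2 fold change 2.57, SE 0.48, edgeR adjusted p = 0.0413), without overlap.

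Of the 3 genes that fell, C4a and Fcna belong to or resemble complement factors and Ccl24 encodes a chemokine. C4a, a copy of the complement component gene C4b that the annotation types as a long non-coding RNA, measured 8.07, 14.4 and 19.0 CPM in wild-type and 2.49, 3.74 and 6.55 in Dp16-2xIFNRs livers, a log2 fold change of -1.75 (SE 0.24, edgeR adjusted p = 0.00467). C4b itself stood at 678 and 429 CPM (medians), a log2 fold change of -0.66 (SE 0.27, edgeR adjusted p = 0.503). The sequences of both are nearly identical, so how reads were divided between them is uncertain.

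Fcna, a ficolin of Kupffer cells that activates the lectin pathway of complement, measured 29.8, 36.3 and 48.5 CPM in wild-type and 15.2, 22.1 and 27.0 in Dp16-2xIFNRs livers, a log2 fold change of -0.82 (SE 0.12, edgeR adjusted p = 0.0087). Ccl24, a chemokine that attracts eosinophils, measured 2.56, 3.14 and 3.94 CPM in wild-type and 0.405, 0.627 and 1.47 in Dp16-2xIFNRs livers, a log2 fold change of -2.04 (SE 0.38, edgeR adjusted p = 0.0413). For C4a, Fcna and Ccl24 alike the highest Dp16-2xIFNRs library lay below the lowest wild-type library. The other 35 of the 36 tested genes of complement and coagulation, apart from C4a, and the other 19 of the 20 chemokines, apart from Ccl24, were not called.

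**Figure D3:**
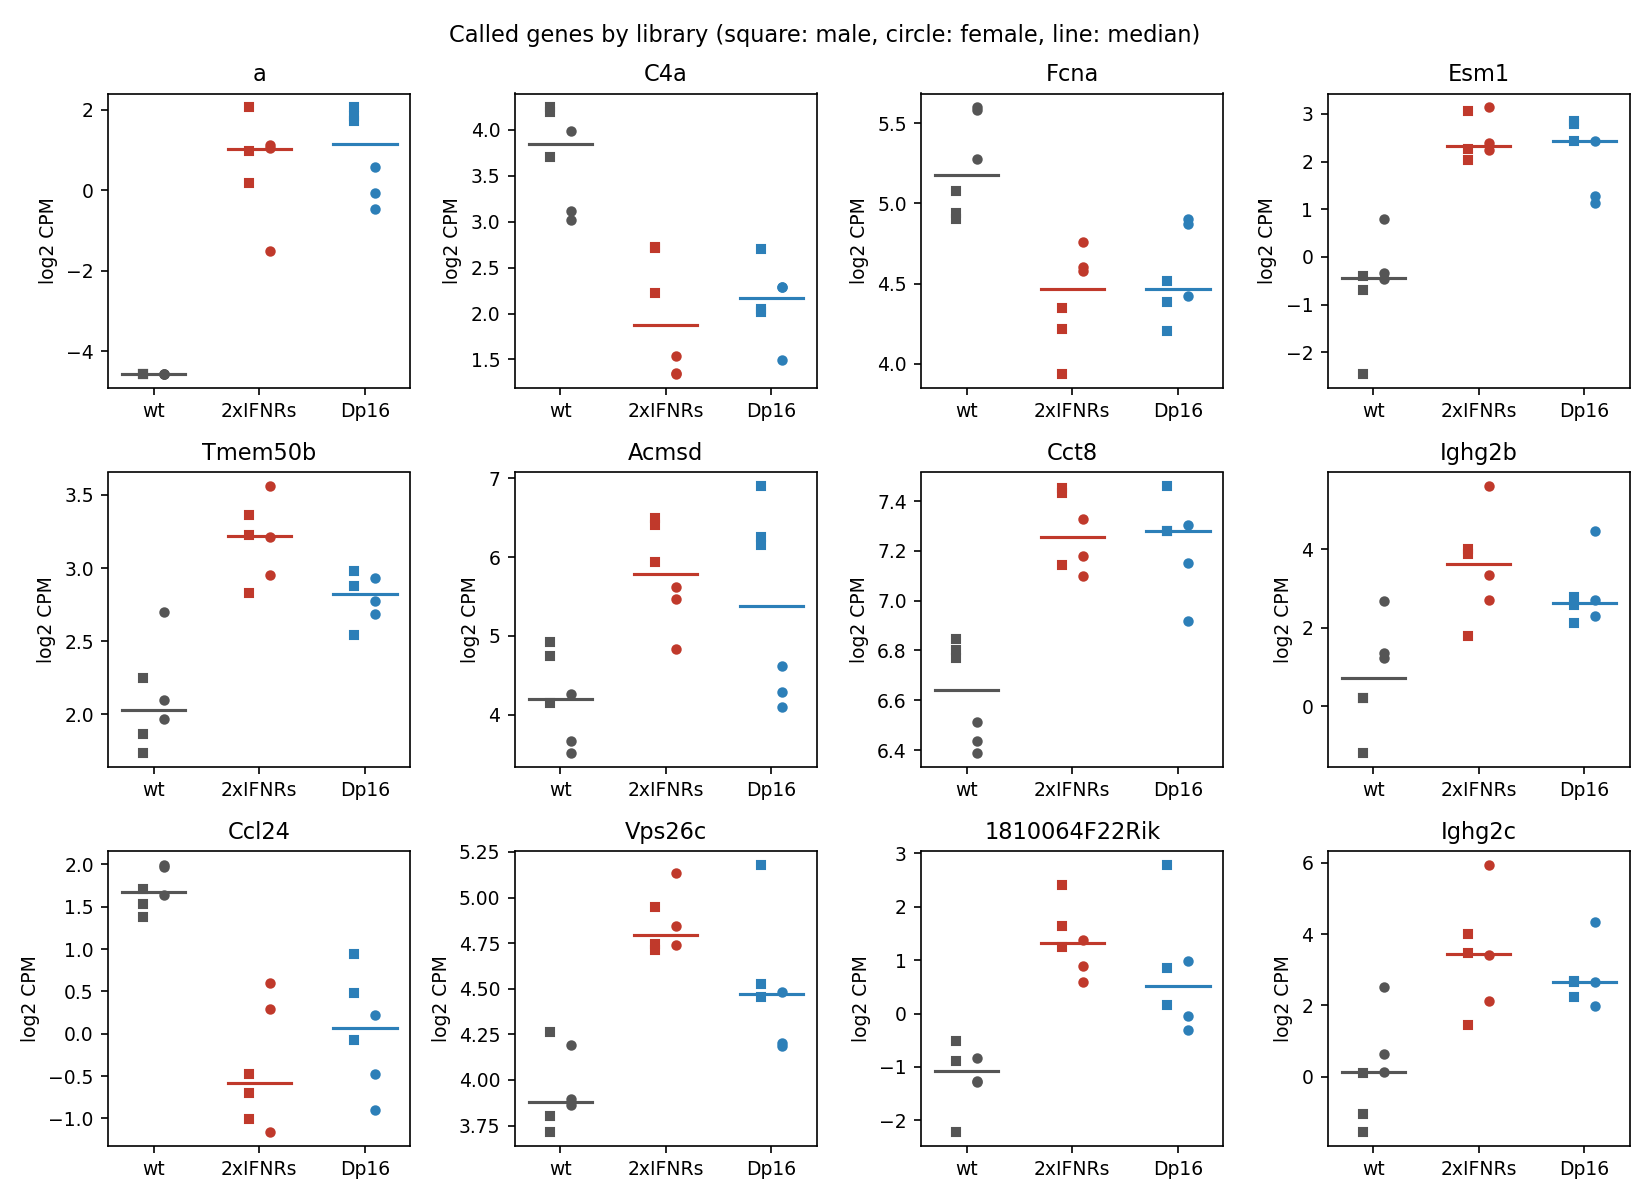
Log2 CPM of the 12 called genes in each library of the 3 groups (squares, males; circles, females; line, group median). Groups of wild-type and Dp16-2xIFNRs libraries do not touch except for Acmsd, Ighg2b and Ighg2c, and Ighg2b runs from 3.45 to 49.2 CPM within the Dp16-2xIFNRs group.

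The 2 immunoglobulin genes varied widely within both groups. Ighg2b, a constant region of immunoglobulin G, measured 0.393, 1.71 and 6.39 CPM in wild-type and 3.45, 12.4 and 49.2 in Dp16-2xIFNRs livers (log2 fold change 3.06, SE 0.56, edgeR adjusted p = 0.0413), and Ighg2c 0.300, 1.05 and 5.63 CPM in wild-type and 2.72, 10.9 and 61.1 in Dp16-2xIFNRs livers (3.55, SE 0.67, edgeR adjusted p = 0.0464). The groups overlapped for both. There were 3 pairs of libraries, 1 wild-type and 1 Dp16-2xIFNRs of the same sex, that share a number in their sample descriptions whose meaning the labels do not give. Within them the differences were 3.79, 0.02 and 5.08 on the log2 scale for Ighg2b and 5.53, -0.37 and 4.52 for Ighg2c, while those of the segment median were 0.43, 0.43 and 0.54. Of all genes 3882 (31.7%) had all 3 pairs on the side of their fold change. Immunoglobulin genes share sequence with close copies, so their counts are uncertain in the same way as those of C4a.

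The calls differed in how far they rest on single libraries. Each of the 18 libraries was left out in turn. The agouti gene, C4a and Fcna kept their call in 18 of 18 fits. Esm1 kept its call in 17 and missed it without wild-type 2 (edgeR adjusted p = 0.0502). Tmem50b kept it in 11 and lost it without wild-type 1, 2, 3 or 5 or Dp16-2xIFNRs 3, 5 or 6 (0.052 to 0.102). Acmsd kept it in 10 and lost it without wild-type 1, 2, 3, 4 or 5 or Dp16-2xIFNRs 1, 2 or 4 (0.0554 to 0.0842). Ighg2b kept it in 8, namely without wild-type 3, Dp16 1, 3, 4 or 5, or Dp16-2xIFNRs 2, 5 or 6, and reached 0.21 without Dp16-2xIFNRs 4. Ighg2c kept it in 6, namely without wild-type 3, Dp16 1, 4 or 5, or Dp16-2xIFNRs 2 or 5, and also reached 0.21 without Dp16-2xIFNRs 4. Cct8 kept it in 6, without Dp16 1, 3, 4, 5 or 6 or Dp16-2xIFNRs 5, and Ccl24 in 6, without Dp16 1, 3, 4, 5 or 6 or Dp16-2xIFNRs 4, with highest values of 0.102 and 0.124. The transcript 1810064F22Rik kept it in 5 fits, each without 1 of Dp16 1 to 5, and Vps26c in 4, without wild-type 6 or Dp16 1, 4 or 5, with highest values of 0.143 and 0.16. With the length offset 9 of the 12 genes kept their call in 18 of 18 fits. The exceptions were Ighg2b (14), lost without wild-type 1 or 2 or Dp16-2xIFNRs 3 or 4, 1810064F22Rik (15), lost without wild-type 1 or 2 or Dp16-2xIFNRs 4, and Ighg2c (10), lost without wild-type 1, 2, 4 or 5, Dp16 4 or Dp16-2xIFNRs 1, 3 or 4.

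Set against Dp16 livers directly, no gene was called (0 of 12232 by edgeR, with 1277 genes, 10.4%, at an unadjusted p under 0.05; DESeq2 called 4 and limma-voom 0). The log2 fold changes of Dp16 against the same wild-type libraries are given side by side for the called genes, without a test, because both comparisons share those libraries. Agouti levels in both groups are given above. The others were -1.56 for C4a, -0.68 for Fcna, 2.69 for Esm1, 1.21 for Acmsd, -1.59 for Ccl24, 0.68 for Tmem50b, 0.61 for Cct8, 0.57 for Vps26c, 2.18 for 1810064F22Rik, 2.07 for Ighg2b and 2.52 for Ighg2c. Among the 12 genes the 2 immunoglobulin genes had the largest differences between Dp16-2xIFNRs and Dp16, 0.99 for Ighg2b (95% interval -0.03 to 2.01) and 1.02 for Ighg2c (-0.17 to 2.21). The difference of C4a between Dp16-2xIFNRs and Dp16 was -0.19 with a 95% interval of -0.65 to 0.28. Males and females were compared by an interaction term, and no gene was called (0 by edgeR, with 234 genes, 1.91%, at an unadjusted p under 0.05; DESeq2 called 5 and limma-voom 0). Males alone and females alone gave 0 calls each by edgeR, with 569 and 409 genes at an unadjusted p under 0.05.

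Genes that type I interferons induce stood slightly below wild-type. Of 50 tested targets 35 were negative, with a median log2 fold change of -0.14 (-0.15 with the offset, 39 negative), beside -0.02 over all genes. The smallest edgeR adjusted p among them without the offset was 0.18 (Ifih1), and 10 were lower at an unadjusted p under 0.05, as were 5.53% of all genes, and none was higher, beside 3.78%. The median over the targets was -0.32 to -0.03 in the 6 Dp16-2xIFNRs libraries against the wild-type mean, within the wild-type range of -0.29 to 0.30 except at its lower end. It was -0.05 in males and -0.30 in females. Dp16 livers, which share the wild-type libraries, had a median of -0.10 (-0.11 with the offset) over the same 50 targets.

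The promoters of 4 targets that lay low are shown for the interferon-stimulated response element, the site bound by STAT and IRF factors. They were chosen by small p values among the targets whose promoter holds the pattern of this element, and targets without it were not eligible. Capitals mark matches to its pattern, GAAA, any 2 bases and GAAA again, on either strand (the match of Ddx58 is on the opposite strand and reads as its reverse complement), in the 250 bases before and 50 after the gene start (RefSeq, GRCm38.p6). Ifih1, Ddx58 and Ddx60 encode helicases of the cytoplasmic response to viral RNA, and Eif2ak2 the kinase PKR, which stops translation on double-stranded RNA. The windows are chr2:62646206-62646505 (minus strand) for Ifih1, chr8:61927837-61928136 (plus strand) for Ddx60, chr17:78882523-78882822 (minus strand) for Eif2ak2 and chr4:40239776-40240075 (minus strand) for Ddx58.
Ifih1: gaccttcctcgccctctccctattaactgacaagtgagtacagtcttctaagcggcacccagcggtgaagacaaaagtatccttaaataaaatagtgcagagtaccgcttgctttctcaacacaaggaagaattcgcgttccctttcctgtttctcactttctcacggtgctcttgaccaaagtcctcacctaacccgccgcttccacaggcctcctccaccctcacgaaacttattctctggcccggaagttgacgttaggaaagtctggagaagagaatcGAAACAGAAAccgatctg
Ddx60: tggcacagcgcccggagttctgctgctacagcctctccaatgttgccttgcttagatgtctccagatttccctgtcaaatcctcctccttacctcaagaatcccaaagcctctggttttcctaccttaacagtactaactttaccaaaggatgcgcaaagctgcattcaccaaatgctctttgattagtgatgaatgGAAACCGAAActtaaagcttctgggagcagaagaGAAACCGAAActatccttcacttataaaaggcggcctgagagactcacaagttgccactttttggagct
Eif2ak2: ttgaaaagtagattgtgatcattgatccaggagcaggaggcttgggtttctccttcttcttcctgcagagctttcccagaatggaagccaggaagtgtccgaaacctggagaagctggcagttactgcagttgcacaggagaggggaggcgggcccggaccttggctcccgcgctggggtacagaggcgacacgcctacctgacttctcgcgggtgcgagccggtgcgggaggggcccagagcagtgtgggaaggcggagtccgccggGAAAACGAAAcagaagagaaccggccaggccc
Ddx58: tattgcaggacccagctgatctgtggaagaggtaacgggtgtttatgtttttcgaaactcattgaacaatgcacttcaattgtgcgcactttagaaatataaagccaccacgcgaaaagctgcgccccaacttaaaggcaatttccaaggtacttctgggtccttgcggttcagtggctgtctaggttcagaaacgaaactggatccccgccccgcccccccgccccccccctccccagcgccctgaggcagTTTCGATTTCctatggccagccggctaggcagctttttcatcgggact
Of the 50 targets 39 had a promoter in the table, and 17 of these held the motif in at least 1 promoter. Of the 9461 tested genes with a promoter 3.87% did so, and of all 32851 single promoters 3.44% held it. Targets with the motif had a median log2 fold change of -0.05 and those without it -0.09 (-0.10 in both with the offset).

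Ifih1 measured 24.6, 27.7 and 33.4 CPM in wild-type and 12.1, 19.2 and 22.9 in Dp16-2xIFNRs livers, a log2 fold change of -0.59 (SE 0.15, edgeR adjusted p = 0.18) and -0.45 with the offset. It was the 1 target of the 50 without overlap between the groups (0.335% of all genes lay lower without overlap). Ddx60 measured 1.11, 3.32 and 6.10 CPM in wild-type and 0.137, 1.60 and 3.10 in Dp16-2xIFNRs livers (-1.22, SE 0.47, edgeR adjusted p = 0.463). Eif2ak2 stood at -0.67 and Ddx58 at -0.55. The genes of all 4 promoters above had negative values and none passed. Their motif and small p values were set by the way they were chosen and are not a result.

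Ifi27, a small membrane protein induced by type I interferons, was the 1 target called with the length offset (0.172% of all genes were called lower with it). It measured 48.3, 83.5 and 117 CPM in wild-type and 35.8, 46.7 and 60.1 in Dp16-2xIFNRs livers, a log2 fold change of -0.86 (SE 0.23, edgeR adjusted p = 0.226) without and -1.09 (0.000646) with the offset. The groups overlapped, and with the offset the call was kept in 18 of 18 fits with 1 library left out. In Dp16 livers, which share the wild-type libraries, it also stood at -0.86.

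Other widely used interferon targets went both ways. Irf7, a transcription factor that amplifies the response, stood at -0.14 (-0.20 with the offset), Isg15, a ubiquitin-like modifier, at 0.24 (-0.10 with it) and Isg20, a nuclease, at 0.49 (0.30 with it), none of them called. The kinase gene Tyk2, which serves the type I receptor, stood at -0.52 (SE 0.25, edgeR adjusted p = 0.536). Of 14 JAK-STAT and receptor partner genes 12 were negative (median -0.22), or 10 with the offset (median -0.13). Dp16 livers, which share the wild-type libraries, had a median of 0.09 over these genes, or 0.03 with the offset. Interferon gamma targets split into 11 positive and 12 negative of 23 (median -0.05). Among them Cxcl9, a chemokine for T cells, measured 9.73, 16.8 and 37.6 CPM in wild-type and 30.8, 35.5 and 65.0 in Dp16-2xIFNRs livers, a log2 fold change of 0.97 (SE 0.38, edgeR adjusted p = 0.477), and Gbp7, a guanylate-binding protein, stood at -0.79 (SE 0.29).

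**Figure D4:**
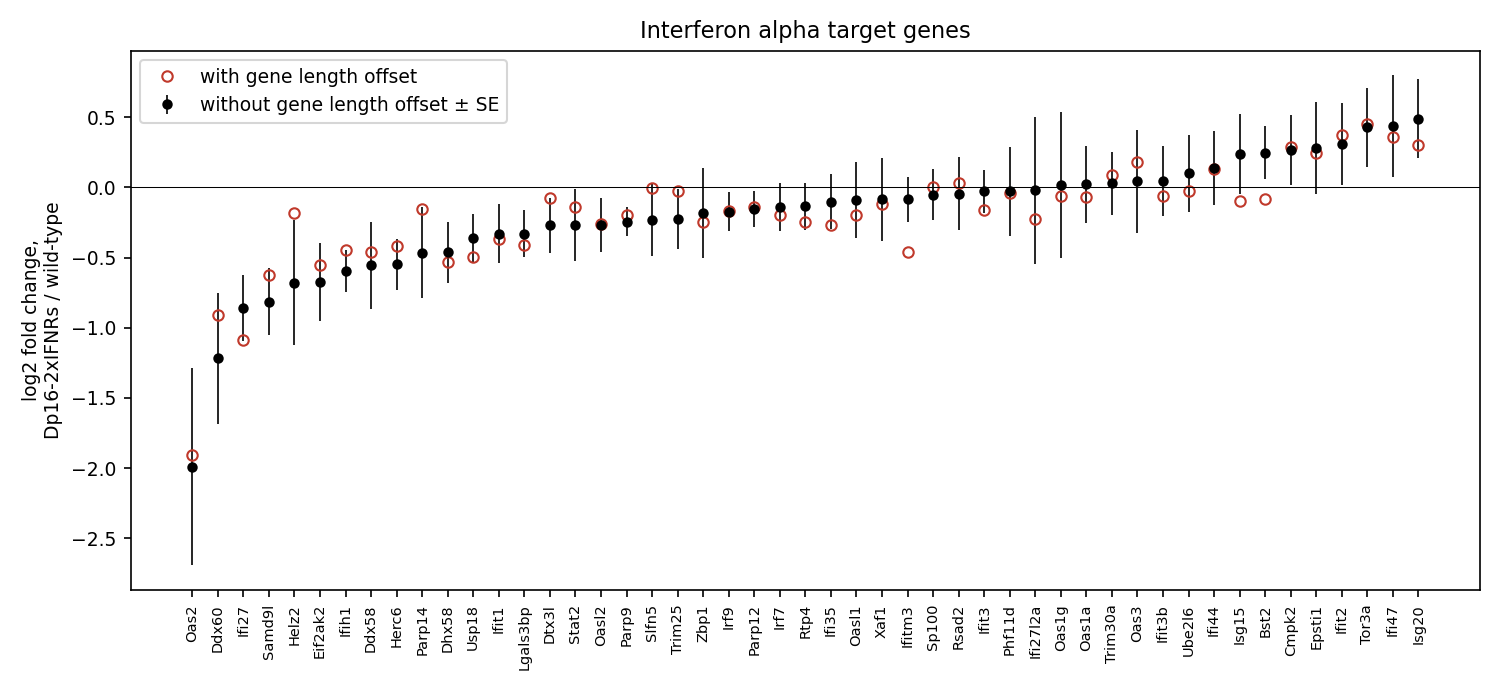
Log2 fold change of Dp16-2xIFNRs against wild-type for 49 of the 50 tested interferon alpha targets, in order of size (points with SE) and with the length offset (open circles). Most points lie below 0, from Oas2 at -1.99 to Isg20 at 0.49.

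Class I genes, which present peptides from within the cell, had 12 of 19 negative values and a median of -0.15, and with the offset 18 of 19 were negative with a median of -0.22. Class II genes, which professional antigen-presenting cells use, were all positive (8 of 8, median 0.66, 0.53 with the offset), and 2 of 8 were higher at an unadjusted p under 0.05, beside 3.78% of all genes. Cd74, the chaperone of class II molecules, measured 78.2, 109.9 and 259.9 CPM in wild-type and 136, 190 and 256 in Dp16-2xIFNRs livers, a log2 fold change of 0.58 (SE 0.27, edgeR adjusted p = 0.527). The class II median was 1.40 in males and 0.02 in females, and no member had an interaction call. Within the 3 pairs sharing a description number it was 1.5, -0.47 and 1.36.

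Markers of immune cells outside the liver's own macrophages stood higher. In whole tissue, fewer cells of a type and less RNA per cell cannot be told apart, so these values are levels per library. Of 23 listed B and plasma cell genes 13 were tested, and all 13 were positive with a median of 1.52 (1.48 with the offset). The filter on low counts spans all 18 libraries, so a scarce gene of these marker lists could pass through the groups where it was high. The counts of positive genes are therefore partly set by the filter. Of the 13 genes 2 were called higher (the immunoglobulin genes above, beside 0.0736% of all genes), or 4 with the offset (beside 0.229%), the other 2 being Igkc and Ighg1. Summed over the list, the level was 44.6, 57.1 and 144 CPM in wild-type and 107, 242 and 613 CPM in Dp16-2xIFNRs livers. The groups overlapped through wild-type 3, which lay 1.65 log2 units above the wild-type mean in the median of the list. Igkc, the immunoglobulin kappa constant region, measured 5.56, 14.4 and 50.3 CPM in wild-type and 42.6, 111 and 273 in Dp16-2xIFNRs livers, a log2 fold change of 2.87 (SE 0.61, edgeR adjusted p = 0.0934), and 2.56 (0.0149) with the offset. The offset call of Igkc was kept in 14 of 18 fits and lost without wild-type 1 or 2 or Dp16-2xIFNRs 3 or 4, and that of Ighg1 (3.73, edgeR adjusted p = 0.0489) was kept in 3. Jchain, which joins secreted immunoglobulins, stood at 2.37 (SE 0.67, edgeR adjusted p = 0.248). Over the whole list Dp16 livers had a median of 1.11 against the same wild-type libraries. Within the 3 pairs sharing a description number the median over the list was 1.79, -0.20 and 3.04.

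Of 21 listed neutrophil and monocyte genes 8 were tested, and all 8 were positive (median 0.83, 0.90 with the offset). Without the offset their median was 1.35 in males and 0.53 in females. Summed over the 21 genes, the level was 44.3, 81.9 and 131 CPM in wild-type and 94.0, 142 and 184 in Dp16-2xIFNRs livers, with overlap. Of 21 listed T and NK cell genes 12 were tested, and 11 were positive (median 0.70, 0.59 with the offset). The calcium-binding protein S100a8 of neutrophils measured 0.213, 0.988 and 1.82 CPM in wild-type and 1.75, 4.07 and 6.35 in Dp16-2xIFNRs livers. Its log2 fold change was 2.04 (SE 0.48, edgeR adjusted p = 0.123), and 1.76 (0.0159) with the offset, and its partner S100a9 followed with 1.59 and 1.28 (0.025 with the offset). The offset call of S100a8 was kept in 16 of 18 fits and lost without Dp16-2xIFNRs 3 or 4, and that of S100a9 was kept in 11 and lost without wild-type 2, 3, 4 or 6 or Dp16-2xIFNRs 3, 4 or 6. T and NK cell genes had a median of 1.47 in males and 0.29 in females, with no interaction call. Summed over that list, the level was 8.05, 13.2 and 31.7 CPM in wild-type and 23.8, 24.8 and 26.7 in Dp16-2xIFNRs livers, so the 6 Dp16-2xIFNRs libraries were much alike and the wild-type ones spread on both sides of them. Against the same wild-type libraries Dp16 livers had medians of 0.52 for neutrophil and monocyte genes and 0.44 for T and NK cell genes.

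Red blood cell genes were positive in 7 of 7 tested members, 4 of them higher without overlap (beside 0.507% of all genes), with a median of 1.49 (1.32 with the offset). The alpha globin gene Hba-a1 measured 1.76, 3.34 and 6.72 CPM in wild-type and 10.1, 14.3 and 26.8 in Dp16-2xIFNRs livers, a log2 fold change of 2.11 (SE 0.50, edgeR adjusted p = 0.123) and 1.80 (0.0281) with the offset. That call was kept in 11 of 18 fits and lost without wild-type 1, 2, 5 or 6 or Dp16-2xIFNRs 1, 3 or 6. The beta globin Hbb-bs measured 3.70, 24.9 and 34.7 CPM in wild-type and 38.9, 61.8 and 94.1 in Dp16-2xIFNRs livers (1.49, SE 0.68, edgeR adjusted p = 0.519). Summed over the 12 listed red blood cell genes, the level was 64.1, 117 and 211 CPM in wild-type and 103, 241 and 352 in Dp16-2xIFNRs livers, with overlap. Red blood cell genes had a median of 1.10 in Dp16 livers against the same wild-type libraries. Globin genes share sequence with their copies. The part of blood left in the tissue in the white cell markers was not tested.

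Kupffer cells, the resident macrophages of the liver, gave the opposite sign. Their 18 tested markers had a median of -0.15 with 12 negative, and with the offset all 18 were negative with a median of -0.25. Fcna was the 1 called without the offset. With it Folr2, a folate receptor of resident macrophages, was also called. Folr2 measured 12.4, 13.3 and 25.8 CPM in wild-type and 6.40, 9.87 and 14.3 in Dp16-2xIFNRs livers, at -0.74 (SE 0.20, edgeR adjusted p = 0.226) without and -0.93 (0.00861) with the offset, a call kept in 18 of 18 fits. The defining Kupffer markers Clec4f and Vsig4 stood at -0.25 and -0.10, and none of the 19 listed markers was at 0 in all libraries. The summed level was 467, 621 and 980 CPM in wild-type and 511, 584 and 637 in Dp16-2xIFNRs livers, which lies within the wild-type range. The median was 0.16 in males and -0.51 in females. Stellate cell and matrix genes had a median of 0.19, and 0.28 with the offset, where 22 of 25 were positive and none was called.

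Hepatocyte genes are described by their place in the liver lobule. Pericentral genes, expressed around the central vein under Wnt signalling, were negative in 19 of 22 (median -0.46, -0.45 with the offset), with 12 lower and 1 higher at an unadjusted p under 0.05, beside 5.53% and 3.78% of all genes. None was called without the offset and 3 were called lower with it (beside 0.172% of all genes), namely Glul, Cyp1a2 and Nr1i3. The median over the list was -0.60 to -0.25 in Dp16-2xIFNRs libraries and -0.17 to 0.31 in wild-type libraries, without overlap. Against the same wild-type libraries Dp16 livers had a median log2 fold change of -0.29 over this list. Glul, the glutamine synthetase of the innermost hepatocyte layer, measured 916, 1258 and 1447 CPM in wild-type and 604, 744 and 822 in Dp16-2xIFNRs livers, a log2 fold change of -0.76 (SE 0.17, edgeR adjusted p = 0.108) and -0.72 (0.0199) with the offset. Cyp1a2, a drug-oxidising cytochrome P450, measured 624, 708 and 993 CPM in wild-type and 338, 415 and 569.5 in Dp16-2xIFNRs livers (-0.74, SE 0.16, edgeR adjusted p = 0.0939, and -0.87, 0.0429, with the offset). Both genes showed no overlap between the groups. The offset call of Glul was kept in 12 of 18 fits and lost without wild-type 1, 2 or 4 or Dp16-2xIFNRs 2, 4 or 5. That of Cyp1a2 was kept in 6, namely without wild-type 6, Dp16 1, 4, 5 or 6 or Dp16-2xIFNRs 2, with an adjusted p up to 0.132 in the others.

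The Wnt targets among the pericentral genes pointed the same way by estimate. Axin2, a feedback inhibitor of Wnt signalling, stood at -1.06 (SE 0.42), Lgr5, a receptor that enhances it, at -0.75 (SE 0.30) and Rnf43, a ligase that dampens it, at -0.72 (SE 0.29), with edgeR adjusted p values of 0.484, 0.484 and 0.483. With the offset they stood at -0.92, -0.61 and -0.58. Aldh1b1 was an exception at 0.53 (SE 0.21). Nr1i3, the xenobiotic receptor CAR, measured 43.3, 64.7 and 110 CPM in wild-type and 22, 36.7 and 44 in Dp16-2xIFNRs livers, at -1.01 (SE 0.21, edgeR adjusted p = 0.0858) and -0.99 (0.0383) with the offset. The offset call was kept in 8 of 18 fits, namely without wild-type 4, Dp16 1 to 6 or Dp16-2xIFNRs 3, with an adjusted p up to 0.123 in the others.

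Periportal and urea cycle genes, expressed where blood enters the lobule, were positive in 16 of 17 (median 0.24, 0.34 with the offset), with 6 higher and 0 lower at an unadjusted p under 0.05, beside 3.78% and 5.53% of all genes. Sdsl, a serine and threonine dehydratase, measured 8.98, 9.37 and 12.8 CPM in wild-type and 15.7, 22.4 and 28.9 in Dp16-2xIFNRs livers, without overlap, at 1.14 (SE 0.23, edgeR adjusted p = 0.0764) and 0.99 (0.0076) with the offset, a call kept in 18 of 18 fits. Gls2, the liver glutaminase, measured 247, 334 and 503 CPM in wild-type and 399.7, 485 and 659.6 in Dp16-2xIFNRs livers (0.53, SE 0.18, edgeR adjusted p = 0.368). The exception was Cps1, the entry enzyme of the urea cycle, at -0.18 without and 0.01 with the offset. Periportal and urea cycle genes had a median of 0.19 in Dp16 livers against the same wild-type libraries. The general hepatocyte markers of the opening had a median of 0.14, or 0.03 with the offset.

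Lipid synthesis genes were mostly below wild-type. Lipid droplet and apolipoprotein genes split into 9 positive and 9 negative of 18 (median log2 fold change 0.02, -0.15 with the offset). Cholesterol synthesis genes were negative in 21 of 26 (median -0.30, -0.31 with the offset), and 8 were lower and 0 higher at an unadjusted p under 0.05, beside 5.53% and 3.78% of all genes. Their median in Dp16 livers against the same wild-type libraries was -0.29. Nsdhl, an enzyme of the late sterol pathway on the X chromosome, measured 87.8, 104 and 115 CPM in wild-type and 58.7, 68.3 and 73.9 in Dp16-2xIFNRs livers, without overlap. It just missed the threshold at -0.59 (SE 0.11, edgeR adjusted p = 0.0505) and passed with the offset at -0.67 (0.00624), in 18 of 18 fits. Cyp51, the sterol demethylase, also showed no overlap (187, 204 and 239 CPM beside 118, 145 and 167) at -0.55 (SE 0.14, edgeR adjusted p = 0.172).

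Fatty acid synthesis genes were negative in 19 of 22 (median -0.37, -0.29 with the offset). Fasn, the fatty acid synthase, measured 243, 679 and 969 CPM in wild-type and 183, 292 and 557 in Dp16-2xIFNRs livers, a log2 fold change of -1.15 (SE 0.47, edgeR adjusted p = 0.487) and -0.79 with the offset. Dp16 livers had a median of 0.21 over the same 22 genes against the same wild-type libraries, and for Fasn 0.15. The Dp16 libraries spread widely, with medians over the list from -0.94 in Dp16 4 to 1.10 in Dp16 5, the 2 libraries that stood apart, and so spanned the whole range of the Dp16-2xIFNRs libraries (-0.82 to 0.11). The difference between Dp16-2xIFNRs and Dp16 had a median of -0.65 over the list, with no member called. Bile acid genes had a median of -0.16, with Slc10a1, the uptake transporter, at -0.43 (SE 0.12, edgeR adjusted p = 0.254).

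**Figure D5:**
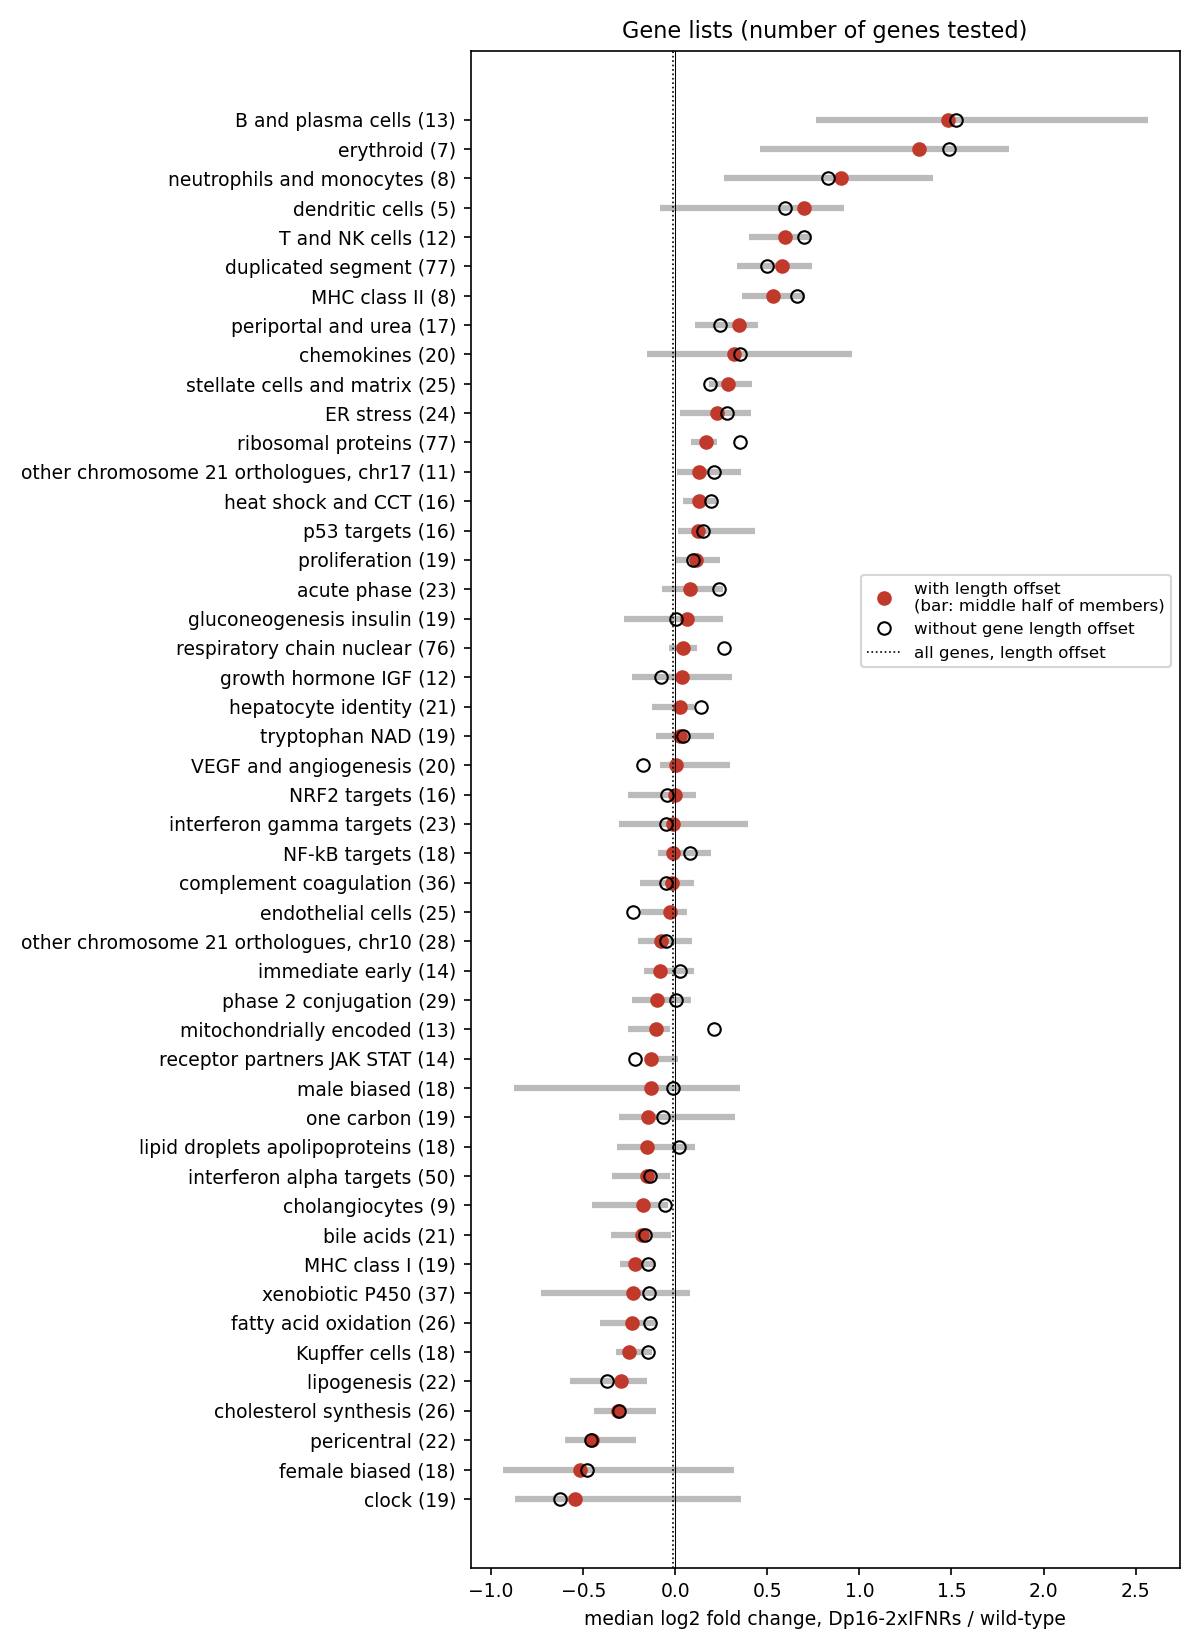
Median log2 fold change of Dp16-2xIFNRs against wild-type over the tested members of 48 gene lists, with the length offset (filled, bar from the first to the third quartile) and without it (open). B and plasma cell genes lie highest at 1.48, the segment at 0.58, pericentral genes at -0.45 and clock genes lowest at -0.54, and mitochondrially encoded, ribosomal and respiratory chain genes lie apart in the 2 fits.

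Lists of short genes moved with the length offset. Ribosomal protein genes were positive in 77 of 77 (median 0.35), and with the offset in 73 with a median of 0.17. Nuclear genes of the respiratory chain went from a median of 0.27 with 72 of 76 positive to 0.04 with 48 positive. The 13 mitochondrially encoded genes changed sign, from 0.21 to -0.11. None of these 3 lists had a member called by edgeR in either fit, or one with an unadjusted p under 0.05 without the offset.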

How the data were processed

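PolyA RNA from whole liver was sequenced in paired ends from strand-marking libraries, per the labels' protocols. The authors deposited gene counts made with HISAT2 2.1.0, SAMtools 1.5 and HTSeq 0.6.1 on GRCm38, per the submitters' processing notes, and RPKM values, which equal the deposited counts divided by gene length and library total (25480 genes checked). The strand setting of that step is one the sources used here do not give. Positions came from GENCODE M21, which holds 99.56% of the gene IDs. Totals of 38236222 to 53105543 counts per library limit precision less than the spread between mice (median biological coefficient of variation 0.308).

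Genes with a CPM of at least 1 in 6 of 18 libraries were tested with edgeR 4.0.16 (R 4.3.3, quasi-likelihood, TMM, genotype and sex, all 18 libraries, Benjamini-Hochberg adjusted p under 0.05). Alternatives were DESeq2 1.42.0, limma 3.58.1 (voom, and log2 of RPKM plus 0.1 or 1), other scalings, filters, terms and samples, each library left out, and a loess offset (span 0.5) of log2 CPM on log2 gene length per library, chosen after seeing the data. On counts simulated without a length trend edgeR called 5 of 66, 30 of 66 and 57 of 64 genes planted at 1.5, 2 and 4-fold, with 4 of 96 calls false (12069 genes). On other counts, simulated with the length trend, the fit with the offset called 2 of 66, 33 of 62 and 57 of 66, with 2 of 94 false (12051 genes). Neither simulation held a sex effect or a correlation between libraries. The fit without the offset was not run on counts with the trend, so its false calls there are not known.

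Replicate numbers of the titles were not used as pairs in the main fit. Correlations of deviations between wild-type and Dp16-2xIFNRs libraries of the same number ran from -0.41 to 0.55. The negative values were those of replicates 2 and 3, each a male and a female library. The range therefore cannot show whether the numbers pair samples. The members and the 51 gene lists were chosen with earlier results of these data known. Genes are named where they were called, were nearest to the threshold, lay at either end of the segment, or led a list. Genes first called with the length offset were chosen after their values were seen. A few single genes are not reported here.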

Additional observations from a re-analysis of the deposited data

Results flagged for a closer look

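In 12 of 241 groups of 6 libraries examined for the named genes, 1 library lay far from the other 5, about the 1 in 20 that chance gives. Among wild-type libraries these were Sdsl in library 6 (12.8 CPM, the others 8.98 to 10.2), Cyp1a2 in library 1 (993, the others 624 to 725), Ext1 in library 1 (31.5, the others 37.4 to 40.9), Jam2 in library 1 (13.6, the others 10.5 to 11.6), Sytl1 in library 2 (2.96, the others 4.81 to 5.85), Serpina3n in library 4 (508, the others 302 to 343) and Me1 in library 4 (155, the others 314 to 449). Among Dp16-2xIFNRs libraries they were Camk2b in library 4 (1.10 CPM, the others 2.32 to 3.44), Adamtsl2 in library 5 (6.07, the others 9.14 to 10.6), Hspa1b in library 5 (7.17, the others 1.16 to 2.12), Erap1 in library 5 (34.8, the others 42.0 to 45.9) and Ifih1 in library 3 (12.1, the others 18.6 to 22.9).

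For 4 named genes every male Dp16-2xIFNRs library lay on one side of the wild-type male mean and every female one on the other side of the wild-type female mean. The log2 fold changes in males and females were -0.23 and 0.16 for Ttc3, -0.28 and 0.25 for Jam2, -0.75 and 0.67 for Ripk4, and 0.82 and -0.30 for Klf6. A test of male against female fold changes passed for none of the 4 (edgeR interaction, adjusted p = 0.999882 each).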

How the results depend on the processing

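None of the 12 called genes reversed its sign under the alternatives run, but their number depended on the processing. It was 118 with DESeq2, 755 with limma-voom and sample quality weights, 41 and 35 on log2 RPKM plus 0.1 and plus 1, 3 without a sex term, 42 with only the 2 groups compared, 59 without Dp16 libraries 4 and 5, 96 with the description number as a random block (consensus correlation 0.484), and 0 in males or females alone. Without wild-type libraries 1 and 4, added after seeing the data, it was 5, and 13 with the gene length offset, with 6 of the 12 called genes among these 13. Leaving out single libraries gave 3 (without wild-type 2) to 42 (without Dp16 4) calls, namely 4, 3, 7, 5, 4 and 11 without wild-type 1 to 6, 16, 7, 12, 42, 21 and 8 without Dp16 1 to 6, and 5, 7, 5, 6, 8 and 6 without Dp16-2xIFNRs 1 to 6. With the gene length offset the count was 49, or 71 with only the 2 groups compared, 77 without Dp16 libraries 4 and 5, 51 with the replicate block, and, with single libraries left out, 24, 20, 34, 35, 28 and 42 without wild-type 1 to 6, 49, 42, 40, 62, 56 and 41 without Dp16 1 to 6, and 37, 36, 25, 23, 30 and 32 without Dp16-2xIFNRs 1 to 6. Replicate numbers correlated best with their own number in 3 of 6 cases, which does not settle whether they pair samples, and the replicate block gave 20 calls. Against Dp16 DESeq2 called 4 genes, and between the sexes 5.

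The segment median of 0.50 was 0.52 with the replicate block, 0.42 and 0.23 on log2 RPKM plus 0.1 and plus 1, and 0.44 to 0.54 when libraries were left out. With the length offset it was 0.58, also with only the 2 groups compared, 0.59 without Dp16 libraries 4 and 5, 0.59 with the replicate block, and 0.52 to 0.59 when libraries were left out. The causes were not tested. Of the 60 alternatives, C4a kept its side of the threshold in 57, Esm1 in 57, Fcna in 56 and agouti in 56 of the 57 that gave it a value, and Ighg2c in 26. Agouti and Ccl24 rest on few counts, 496 and 200 over the 6 Dp16-2xIFNRs libraries, and depth limits them more than the immunoglobulin genes. Ighg2b and Ighg2c had 4167 and 4348 counts there, and ran from 3.45 to 49.2 and from 2.72 to 61.1 CPM between those libraries.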

Other observations

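Clock genes were negative in 15 of 19 (median log2 fold change -0.62, -0.54 with the length offset), with 4 lower and 1 higher at an unadjusted p under 0.05 (beside 5.53% and 3.78% of all genes), and none was called. Per2, a repressor of the clock, measured 4.23, 6.60 and 13.2 CPM (lowest, median, highest) in wild-type and 1.57, 4.37 and 6.27 in Dp16-2xIFNRs livers (-1.04, SE 0.38, edgeR adjusted p = 0.441), and Cry2, its partner, stood at -0.76 (SE 0.23). Nfil3, which represses clock output genes, stood at 1.26 (SE 0.46). Dbp, a clock output gene of very large daily swing, ran from 1.16 to 210.3 CPM in wild-type and from 0.638 to 197 in Dp16-2xIFNRs livers. The hour of collection was not given in the sources used here, and its part in these values was not tested.

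Genes of the unfolded protein response of the endoplasmic reticulum were positive in 19 of 24 (median 0.28, 0.23 with the offset). Creld2 and Manf, secreted proteins induced by that response, stood at 1.27 (SE 0.52) and 1.14 (SE 0.46), and Hspa5, its main chaperone, at 0.70 (SE 0.35), none of them called. Manf measured 47.6, 70.2 and 235 CPM in wild-type and 49.4, 177 and 494 in Dp16-2xIFNRs livers, with wide overlap. Cdkn1a, the cell cycle inhibitor that leads the p53 list, stood at 1.27 (SE 0.48, edgeR adjusted p = 0.453), and the p53 list had a median of 0.15 over 16 genes.

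Cyp17a1, a steroid-making cytochrome P450, was among the genes nearest to the threshold, at 1.39 (SE 0.28, edgeR adjusted p = 0.0764), and passed with the length offset at 1.35 (0.0224), a call lost without wild-type 2 or 5 or Dp16-2xIFNRs 3 or 5. It stood at 2.26 in males and 0.61 in females, an interaction with an unadjusted p of 0.000643 that did not pass over all genes. Cyp3a16 stood at -3.07 (edgeR adjusted p = 0.0698), and at -3.16 (0.025) with the length offset. It passed in 3 of 18 fits with 1 library left out without the offset (Dp16 1, 4 or 5) and in 9 of 18 with it. It ran from 0.0737 to 88.9 CPM in wild-type and from 0.0219 to 8.36 in Dp16-2xIFNRs livers. Both belong to families of similar sequence.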
